A study of Mus musculus with 7 samples.

Results

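The genes described here are 7 long noncoding RNAs, namely Malat1, Neat1, Meg3, Rian, Mirg, H19 and Dnm3os, taken from the gene table by their symbols and making up 7 of its 23420 rows. They were measured by bulk sequencing of total RNA from cardiac ventricle that had been flash-frozen (the tissue label itself reads whole mouse heart). The 4 control mice had the genotype Ctla4+/+;Pdcd1-/-, and the 3 ICI-myocarditis mice had the genotype Ctla4+/-;Pdcd1-/-. All 7 animals thus lacked Pdcd1, which encodes the inhibitory T cell receptor PD-1, and the groups differed in the number of intact copies of Ctla4, which encodes the inhibitory receptor CTLA-4. The animals were 3 to 6 weeks old and were labelled as untreated, so the model of immune checkpoint inhibitor (ICI) myocarditis was genetic. Animals with intact Pdcd1 were not analysed here, and the labels give neither the age nor the sex of each animal.

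Long noncoding RNAs are transcripts that are not translated and act, where a role is known, as RNA. Malat1 lies in nuclear speckles, bodies rich in splicing factors, and Neat1, its neighbour on chromosome 19, is the scaffold on which paraspeckles assemble. Meg3, Rian and Mirg are transcribed in that order from the maternal copy of the imprinted Dlk1-Dio3 domain on chromosome 12, where Rian hosts a cluster of C/D box small nucleolar RNAs (snoRNAs) and Mirg hosts a large microRNA cluster. H19 is the maternally expressed partner of the paternally expressed growth factor gene Igf2, is abundant in the fetal heart and hosts miR-675. Dnm3os is transcribed from the strand opposite to its host gene Dnm3 and is the precursor of miR-199a and miR-214, microRNAs studied in heart muscle and in fibrosis.

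The microRNAs carried by these transcripts are the sequences through which several of them are known to act, so those of Dnm3os, H19 and Meg3 and a few of those in Mirg and Rian are shown. RefSeq placed 21 hairpins on the same strand inside 5 of the 7 genes: 14 in Mirg, 3 in Rian, 2 in Dnm3os and 1 each in H19 and Meg3. Their 40 mature forms had 39 different seeds (bases 2 to 8, which pair with targets). Mature sequences from RefSeq (GRCm38.p6) are written 5′ to 3′ with the seed in capitals.
mmu-miR-199a-5p: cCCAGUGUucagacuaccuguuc
mmu-miR-199a-3p: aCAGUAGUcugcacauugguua
mmu-miR-214-5p: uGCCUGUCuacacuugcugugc
mmu-miR-214-3p: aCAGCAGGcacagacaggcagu
mmu-miR-675-5p: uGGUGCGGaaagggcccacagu
mmu-miR-675-3p: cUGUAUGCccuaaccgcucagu
mmu-miR-770-5p: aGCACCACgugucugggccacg
mmu-miR-770-3p: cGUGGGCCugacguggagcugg
mmu-miR-134-5p: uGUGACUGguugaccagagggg
mmu-miR-154-5p: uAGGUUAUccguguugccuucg
mmu-miR-370-3p: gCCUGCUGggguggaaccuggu
mmu-miR-410-3p: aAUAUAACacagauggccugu
mmu-miR-453: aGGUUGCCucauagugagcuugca
mmu-miR-496a-5p: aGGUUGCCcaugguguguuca
The first 4 come from Dnm3os, the miR-675 pair from H19, the miR-770 pair from Meg3, mmu-miR-370-3p from Rian and the rest from Mirg. The only seed that occurred more than once was GGUUGCC, shared by mmu-miR-453 and mmu-miR-496a-5p, both in Mirg. The libraries measured host transcripts and not mature microRNAs. The rows for Mir199a-2, Mir214, Mir675 and Mir770 were at 0 in all 7 libraries. The 13 Mirg hairpins with a row reached at most 16.0 normalized counts (Mir134 in control 2), and the 4 of 13 Rian snoRNAs with a row reached at most 7.16. None of these rows passed the filter on low values, so none was tested.

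Promoter windows of 300 bases are shown for Meg3 and Dnm3os, which held a motif marked below. Both genes were highest in control 2 and lowest in control 4 among the controls, an order that every gene described here except Rian shared. Whether a motif bears on that order was not tested. Both windows come from RefSeq (GRCm38.p6) on the plus strand, chr12:109540746-109541045 for Meg3 and chr1:162217373-162217672 for Dnm3os. Capitals mark a cAMP response element (TGACGTCA) in Meg3 and a CArG box, the motif that serum response factor binds, in Dnm3os.
Meg3 promoter: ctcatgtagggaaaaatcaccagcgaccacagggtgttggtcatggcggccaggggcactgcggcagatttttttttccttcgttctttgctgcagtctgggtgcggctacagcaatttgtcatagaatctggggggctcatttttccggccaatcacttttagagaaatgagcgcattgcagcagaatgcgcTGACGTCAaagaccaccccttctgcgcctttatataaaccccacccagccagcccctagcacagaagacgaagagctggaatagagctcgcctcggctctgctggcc
Dnm3os promoter: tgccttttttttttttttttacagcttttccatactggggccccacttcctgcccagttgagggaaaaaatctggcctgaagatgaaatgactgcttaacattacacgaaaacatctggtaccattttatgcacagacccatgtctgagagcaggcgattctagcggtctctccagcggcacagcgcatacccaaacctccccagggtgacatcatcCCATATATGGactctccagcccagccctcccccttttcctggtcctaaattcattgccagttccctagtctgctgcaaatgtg
The cAMP response element started at position -57 from the Meg3 start site, and 1.79% of the 32851 mouse promoter windows of this length held the same letters on either strand. A TATA box (TATAAA) started at -25 and a CCAAT box (CCAAT) at -100 in the same window, with 13.6% and 37.4% of all windows holding these motifs. The CArG box of Dnm3os started at -33, and 1.63% of all windows held one. A second RefSeq start of Meg3 (window chr12:109545148-109545447, not shown) also had a CArG box, at -94. No window was available for Neat1 or H19, and that of Rian held none of the motifs sought. The Malat1 window held only the shorter motif TGACG, found in 20.8% of all windows, and the Mirg window only a CCAAT box. These are matches of letters and not measured binding.

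Recovered depth ranged from 20931730 to 39037176 reads per library. The labelled tissue was checked with 10 cardiomyocyte markers, which were present in every library (Myh6, the main adult mouse myosin heavy chain, at 402804 to 1196025 normalized counts). Reads from Pdcd1 were present in all libraries (2.50 to 244 normalized counts in controls and 1096 to 1481 in ICI-myocarditis), and Ctla4 had 29.2 to 113 and 251 to 373. Which exons the alleles lack is not given in the sources used here, so these counts do not check the genotypes. Control 2 stood apart from the other controls, with the highest Pdcd1 level of its group and with 0.00724% of its reads from 9 T cell markers against 0.000382% to 0.000799% in the other 3. The fold changes of the 7 genes and their ratios are therefore also given without that library. Nothing in the labels says which animals shared a litter or a preparation.

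None of the 7 RNAs passed the test between the groups. By limma on log2(normalized count + 1), 0 of the 7 had a Benjamini-Hochberg adjusted p below 0.05, beside 15.7% of the 15236 genes tested. All 7 passed the filter, and 0 had an unadjusted p below 0.05, beside 30.1% of all genes. The count was also 0 by edgeR, beside 14.0% of all genes, and 0 by DESeq2, beside 22.6%. None of the 7 was called in the authors' deposited table, beside 20.2% of its genes with an adjusted p. The groups overlapped for all 7 genes, whereas they did not overlap for 28.6% of all genes tested. A p that misses the threshold does not show equal levels, and the 95% intervals given below span more than 2-fold for every gene.

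**Figure D1:**
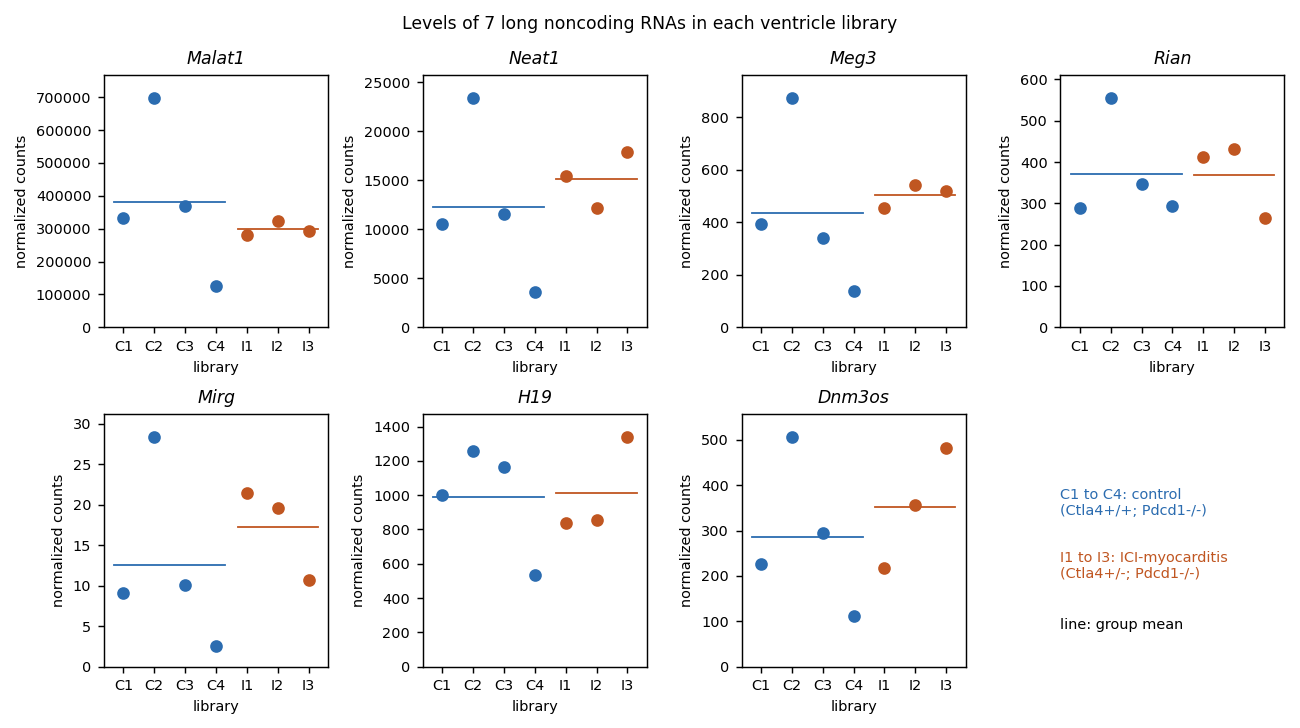
Normalized counts (vertical axes, linear, from 0) of each of the 7 long noncoding RNAs in the 4 control libraries (C1 to C4) and the 3 ICI-myocarditis libraries (I1 to I3), with lines at the group means. Control 2 is the highest control for every gene, control 4 is the lowest for all but Rian, and the ICI-myocarditis points overlap the control range in each panel.

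Malat1 (chr19:5795690-5802672, minus strand, GRCm38, annotated by GENCODE as a long intergenic noncoding RNA) was the most abundant of the 7 and the gene of rank 5 in the whole table. It stood at 331096, 699274, 369258 and 126851 normalized counts in controls 1 to 4 and at 282257, 323670 and 293430 in ICI-myocarditis 1 to 3. The ICI-myocarditis libraries lay close together, within the range set by controls 4 and 2. Malat1 alone took 0.340% to 2.71% of the reads of a control library and 0.989% to 1.15% of those of an ICI-myocarditis library. The group means were 381620 ± 237007 (SD, n = 4) and 299786 ± 21425 (SD, n = 3). The fitted log2 difference was -0.11 (limma adjusted p = 0.922, SE 0.550), with a 95% interval from 0.392-fold to 2.19-fold. It was 0.26 without control 2 and -0.56 without control 4.

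Neat1 (chr19:5824708-5845478, minus strand, long intergenic noncoding RNA) stood at 10578, 23460, 11565 and 3577 normalized counts in controls 1 to 4. It stood at 15454, 12176 and 17933 in ICI-myocarditis 1 to 3. Each of the 3 ICI-myocarditis values lay above controls 1, 3 and 4 and below control 2. The means were 12295 ± 8249 (SD, n = 4) and 15188 ± 2888 (SD, n = 3), a log2 fold change of 0.58 (95% interval -0.64 to 1.79, SE 0.540, limma adjusted p = 0.526). Its call did not depend on control 2 (log2 fold change 0.98 without it, limma adjusted p = 0.141), though the value did, as it did on control 4 (0.08 without it).

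Meg3 (chr12:109541001-109571726, plus strand, long intergenic noncoding RNA), a transcript with growth-restraining activity in cultured cells, was likewise highest in control 2 and lowest in control 4. Controls 1 to 4 held 395, 876, 342 and 136 normalized counts, against 454, 544 and 520 in ICI-myocarditis 1 to 3. The ICI-myocarditis libraries differed from one another by at most 1.20-fold, the controls by 6.42-fold. The means of 437 ± 313 (SD, n = 4) and 506 ± 46.2 (SD, n = 3) gave a log2 fold change of 0.50 (95% interval -0.65 to 1.64, SE 0.508, limma adjusted p = 0.561). Without control 2 the log2 fold change was 0.93 (limma adjusted p = 0.109), and without control 4 it was 0.04.

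Rian (chr12:109603940-109661716, plus strand, annotated as a processed transcript) lies downstream of Meg3. It was the steadiest of the 3 transcripts of its domain between controls, at 289, 556, 346 and 294 normalized counts in controls 1 to 4. The ICI-myocarditis libraries held 411, 431 and 264, so ICI-myocarditis 3 was the lowest of all 7 libraries. With means of 371 ± 126 (SD, n = 4) and 369 ± 91.1 (SD, n = 3), the log2 fold change was 0.011 (SE 0.291, 95% interval -0.65 to 0.67, limma adjusted p = 0.985), the value nearest to 0 among the 7. Its sign flipped in 8 of 17 alternative analyses, so no direction can be given; it was 0.22 without control 2 and -0.08 without control 4.

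Mirg (chr12:109729764-109749460, plus strand, long intergenic noncoding RNA) was scarce. Controls 1 to 4 held 9.07, 28.4, 10.05 and 2.50 normalized counts, against 21.5, 19.6 and 10.7 in ICI-myocarditis 1 to 3. These values rest on 9, 23, 9 and 2 reads and on 21, 27 and 14 reads, so counting error adds to the spread between animals. All 3 ICI-myocarditis values lay within the control range. The means were 12.5 ± 11.1 (SD, n = 4) and 17.3 ± 5.76 (SD, n = 3), and the log2 fold change of 0.76 (95% interval -0.80 to 2.32, SE 0.692, limma adjusted p = 0.509) had the widest interval of the 7. Without control 2 it was 1.26 (limma adjusted p = 0.153), and without control 4 it was 0.24.

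H19 (chr7:142575529-142578143, minus strand, long intergenic noncoding RNA) was at 1001, 1261, 1167 and 534 normalized counts in controls 1 to 4. It was at 839, 854 and 1341 in ICI-myocarditis 1 to 3. Control 4 was the lowest library and ICI-myocarditis 3 the highest, with the other 5 in between. The means of 991 ± 323 (SD, n = 4) and 1011 ± 285 (SD, n = 3) gave a log2 fold change of 0.07 (95% interval -0.65 to 0.79, SE 0.320, limma adjusted p = 0.917). The sign was negative without control 4 (-0.20) and positive without control 2 (0.21).

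Dnm3os (chr1:162217623-162225550, plus strand, annotated as antisense) stood at 227, 507, 295 and 113 normalized counts in controls 1 to 4. It stood at 217, 356 and 483 in ICI-myocarditis 1 to 3, all 3 within the control range. The means were 285 ± 166 (SD, n = 4) and 352 ± 133 (SD, n = 3), and the log2 fold change was 0.42 (SE 0.477, 95% interval -0.65 to 1.50, limma adjusted p = 0.605). It was 0.77 without control 2 and 0.05 without control 4. The library kit was stranded, but whether the counting used strand is not given in the sources used here. Without strand, reads of Dnm3os and of the opposite strand of Dnm3 that overlap cannot be told apart.

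**Figure D2:**
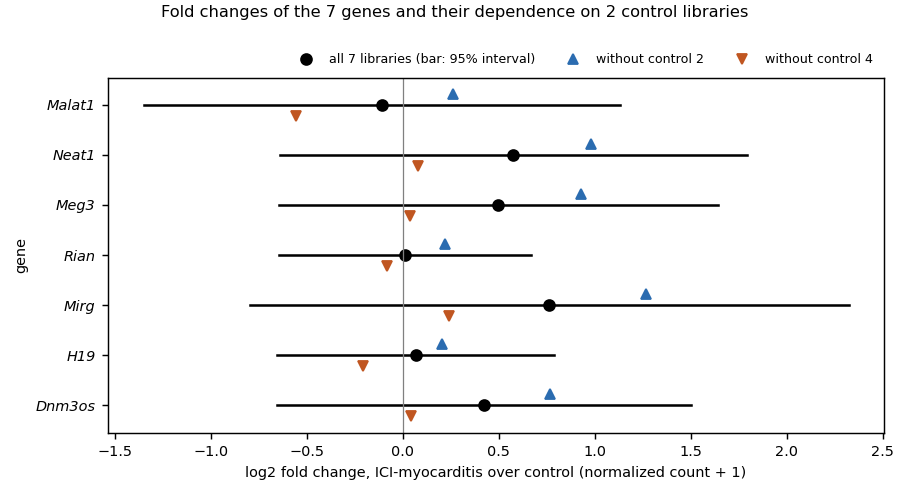
Log2 fold change of each gene in ICI-myocarditis over control from all 7 libraries (circles, with 95% intervals) and after leaving out control 2 or control 4 (triangles). Every interval spans 0, and for each gene the value without control 2 lies to the right of the value without control 4.

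Divided by annotated exon length, the mean levels over 7 libraries spanned 4 orders of magnitude. That length joins the exons of every annotated form of a gene, and the annotation used for counting is not given. Levels per kb of the forms expressed may therefore differ from those below. Malat1 held 49627 normalized counts per kb, Neat1 652, H19 406, Dnm3os 39.6, Meg3 25.8, Rian 20.3 and Mirg 1.99. The levels per kb of Malat1 exceeded those of Neat1 in every library (the lowest Malat1 value was 18166 and the highest Neat1 value 1129). The Neat1 range of 172 to 1129 per kb held the whole H19 range of 217 to 545, so the order of these 2 did not exceed the spread. The ranges per kb of Dnm3os (14.2 to 64.0), Meg3 (7.54 to 48.4) and Rian (14.5 to 30.5) overlapped as well. Mirg, at 0.343 to 3.89 per kb, stayed below the other 6 in all libraries.

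These RNAs varied more among the control animals than among the ICI-myocarditis animals. Control 2 was the highest control for 7 of 7 genes, and control 4 the lowest for 6 of 7, Rian being lowest in control 1. Over all genes tested, control 2 was highest and control 4 lowest together in 22.1%, against 6 of the 7 here. The ratio of control 2 to control 4 was 5.51 for Malat1, 6.56 for Neat1, 6.42 for Meg3, 11.3 for Mirg, 4.50 for Dnm3os, 2.36 for H19 and 1.89 for Rian. The nuclear pair and the imprinted Meg3 thus spanned similar ratios, and Rian and H19 the smallest. As a median, the log2 level in control 2 exceeded that in control 4 by 2.46 for the 7 genes and by 0.02 for all genes tested.

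This order was shared by other long noncoding RNAs of the table. Of the 518 tested genes that GENCODE annotates as long noncoding, 229 (44.2%) had control 2 highest and control 4 lowest, and their median log2 difference between these libraries was 1.14. The SD of log2 levels among controls had a median of 1.02 for the 7 genes, 0.68 for the 518 and 0.40 for all genes tested. Among the ICI-myocarditis libraries the same medians were 0.38, 0.37 and 0.28. The control SD exceeded the ICI-myocarditis SD for 7 of 7 genes, beside 78.0% of the 518 and 67.4% of all genes tested.

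Levels of other cell types and of ribosomal RNA also differed between those libraries, and their part in the spread was not tested. The summed level of the 10 cardiomyocyte markers was lowest among controls in control 2 (2562518 normalized counts) and highest in control 4 (5246724), the reverse of the noncoding RNAs, and it ranged from 1922604 to 3069912 in ICI-myocarditis. The 10 endothelial markers summed to 92037 in control 2 and 36271 in control 4, the same order as the noncoding RNAs, and to 26555 to 34618 in ICI-myocarditis. The precursor of ribosomal RNA, Rn45s, took 3.14%, 4.02%, 1.53% and 1.69% of the reads in controls 1 to 4 and 4.08% to 4.72% in ICI-myocarditis. Control 2 was thus also the control with the highest ribosomal share.

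Several marker lists differed between the groups, whereas the 7 genes did not pass the test. All 9 tested T cell markers and all 9 tested macrophage markers were higher in ICI-myocarditis by limma. Their summed levels were 143 to 1868 against 7919 to 12234 normalized counts for T cells and 14791 to 19635 against 56339 to 86802 for macrophages. Of 18 fibroblast and matrix genes, 7 were higher, of 10 endothelial markers 5 were lower, and of 7 mural cell markers 4 were lower. Of 10 cardiomyocyte markers 0 were called by limma, 2 had an unadjusted p below 0.05, and all 10 fold changes were below 0. Of 5 tested B cell markers 2 were higher. Over all genes tested, 11.7% were called higher and 4.0% lower. No marker of the cardiomyocyte, T cell or macrophage lists that the table holds was at 0 in every library. In bulk tissue, fewer cells of a type and less RNA per cell cannot be told apart.

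**Figure D3:**
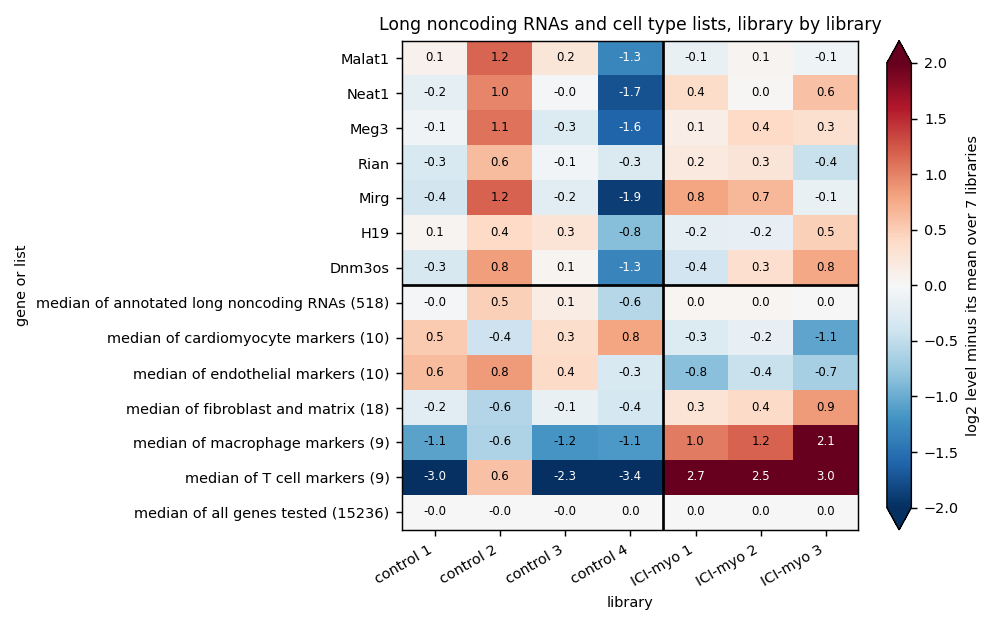
Log2 level of each of the 7 genes, and the median over other gene lists, minus its own mean over the 7 libraries (colour and printed value; columns are libraries, and the horizontal line sets the genes apart from the lists). The 7 genes lie above their own means in control 2 and below them in control 4. Rian is lower still in control 1 and ICI-myocarditis 3, and H19 is higher in ICI-myocarditis 3 than in control 2. The cardiomyocyte markers run the other way between controls 2 and 4, and the T cell and macrophage markers separate the groups.

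Ratios between partner transcripts within a library were compared next, since the size factor of the library cancels in a ratio of counts. The log2 ratios were taken after adding 1 to each count. Those with the scarce Mirg therefore still depend in part on this pseudocount and on the size factor. Of 7 planned pairs 6 were tested, Meg3 over Dlk1 being left out because Dlk1 was at 0 to 3.02 normalized counts. For 3 of the 6 pairs the groups did not overlap, each with an exact permutation p of 0.0286 (two-sided), the smallest that the 35 splits of 4 against 3 libraries allow. Of single genes tested, 28.6% did not overlap, and the share over other pairs of genes was not computed. Adjusted over the 6 pairs this p was 0.0571, so none of the ratios passed the threshold of 0.05. These 3 pairs were already at the smallest p possible, so missing the threshold does not speak against a difference in them. Without control 2, where the smallest exact p is 0.1, the differences of these 3 log2 ratios were 0.72 for Neat1 over Malat1, 0.98 for H19 over Igf2 and 1.03 for Dnm3os over Dnm3, close to the values with it.

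The Neat1 to Malat1 ratio was nearly constant among controls, at 0.0319, 0.0335, 0.0313 and 0.0282, although each RNA varied more than 5-fold between them. In ICI-myocarditis it was 0.0548, 0.0376 and 0.0611, above all controls. The mean log2 ratio was -5.00 ± 0.105 (SD, n = 4) in controls and -4.32 ± 0.367 (SD, n = 3) in ICI-myocarditis, a 1.61-fold difference (exact permutation p = 0.0286, adjusted p = 0.0571).

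The H19 to Igf2 ratio was 0.326, 0.257, 0.319 and 0.240 in controls 1 to 4 and 0.598, 0.511 and 0.634 in ICI-myocarditis 1 to 3. The mean log2 ratio was -1.82 ± 0.219 (SD, n = 4) against -0.79 ± 0.161 (SD, n = 3), a 2.04-fold difference (exact permutation p = 0.0286, adjusted p = 0.0571). Every ICI-myocarditis library thus held more H19 per Igf2 count than every control. By itself H19 overlapped between the groups (log2 fold change 0.07), whereas Igf2 did not (-0.96).

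The Dnm3os to Dnm3 ratio was 0.564, 0.698, 0.731 and 0.539 in controls and 0.806, 1.46 and 1.63 in ICI-myocarditis. The mean log2 ratio was -0.67 ± 0.217 (SD, n = 4) against 0.31 ± 0.545 (SD, n = 3), a 1.98-fold difference (exact permutation p = 0.0286, adjusted p = 0.0571). The limit on strand given for Dnm3os applies to this ratio too. Within the Dlk1-Dio3 domain the ratios overlapped between groups. The log2 ratio differed by -0.49 for Rian over Meg3 (exact permutation p = 0.429, adjusted p = 0.486), by 0.26 for Mirg over Meg3 (exact permutation p = 0.486, adjusted p = 0.486) and by 0.75 for Mirg over Rian (exact permutation p = 0.200, adjusted p = 0.300). Without control 2 these differences were -0.71, 0.33 and 1.04. The Rian to Meg3 ratio was 2.16 in control 4 and 0.509 to 1.01 in the other 6 libraries.

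**Figure D4:**
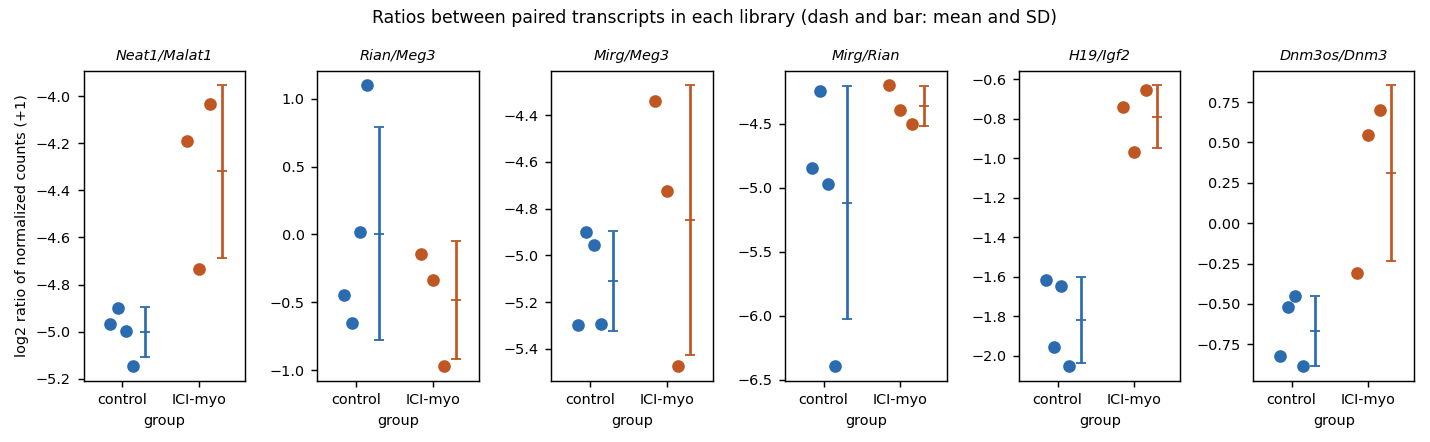
Log2 ratio of normalized counts (+1) between partner transcripts in each library, by group (points are libraries, dash and bar are mean and SD). Neat1 over Malat1, H19 over Igf2 and Dnm3os over Dnm3 separate the groups, with an adjusted exact permutation p of 0.0571 each, and the 3 ratios within the Dlk1-Dio3 domain overlap. Among the genes of the separating ratios, only Igf2 separates the groups by itself.

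Genes that share a chromosomal region with these RNAs were then read from the same limma fit, in which 15.7% of all genes tested were called. In the list of 9 genes around Malat1 and Neat1, 1 of 9 tested was called (11.1%). Frmd8, which encodes a partner of iRhom proteins, was higher (log2 fold change 0.94, SE 0.268, limma adjusted p = 0.044, called in 5 of 17 alternative analyses). The nearby mitochondrial carrier gene Slc25a45 had a log2 fold change of 1.14 (limma adjusted p = 0.052). The neighbours Ltbp3, Fam89b, Kcnk7, Ehbp1l1 and Tigd3 were not called.

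In the Dlk1-Dio3 list 2 of 9 tested genes were called (22.2%, beside 15.7% of all genes tested), both protein coding and both higher. Wars, the interferon-inducible tryptophan tRNA synthetase, was higher by 1.63 on the log2 scale (limma adjusted p = 0.010, SE 0.321, called in 17 of 17 alternatives). Dio3, the thyroid hormone deiodinase at the end of the domain, was at 1.01, 2.47, 1.12 and 0 normalized counts in controls 1 to 4 and at 11.3, 22.5 and 24.5 in ICI-myocarditis 1 to 3. These values rest on 1, 2, 1 and 0 reads against 11, 31 and 32, and Dio3 passed the filter only through the ICI-myocarditis group. Its estimate of 3.31 on the log2 scale (limma adjusted p = 0.008, SE 0.608) therefore depends on the pseudocount. Dio3 was tested in 13 of 17 alternatives and called in all 13, but leaving out any ICI-myocarditis library removed it from the fit. The alternatives thus do not check its call against the loss of such a library. Rtl1, a retrotransposon-derived imprinted gene between Meg3 and Rian, had a log2 fold change of 0.46 (limma adjusted p = 0.628), and Begain had 1.34 (limma adjusted p = 0.100). Wdr25 and Ppp2r5c were not called.

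In the H19-Igf2 list 3 of 7 tested genes were called (42.9%, beside 15.7% of all genes tested). Igf2 was at 3072, 4897, 3660 and 2222 normalized counts in controls 1 to 4 and at 1404, 1673 and 2114 in ICI-myocarditis 1 to 3. All 3 ICI-myocarditis libraries lay below all 4 controls. Igf2 was lower (log2 fold change -0.96, SE 0.282, limma adjusted p = 0.048), but its adjusted p exceeded 0.05 in 11 of 17 alternatives and reached 0.189. Leaving out any library except control 4 ended that call. Lsp1, a leukocyte protein, was higher (log2 fold change 1.29, limma adjusted p = 0.012, called in 16 of 17 alternatives), and so was Tnnt3, fast skeletal troponin T (2.18, limma adjusted p = 0.045, called in 8 of 16). Mrpl23, Tnni2 and Ctsd were not called, Syt8 did not pass the filter, and Ins2 and Th were at 0 in all 7 libraries. Of the 5 genes around Dnm3os 0 were called by limma and 0 had an unadjusted p below 0.05, with Dnm3 at a log2 fold change of -0.56 (limma adjusted p = 0.350). Pigc, Suco and Prrx1 were the others.

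**Figure D5:**
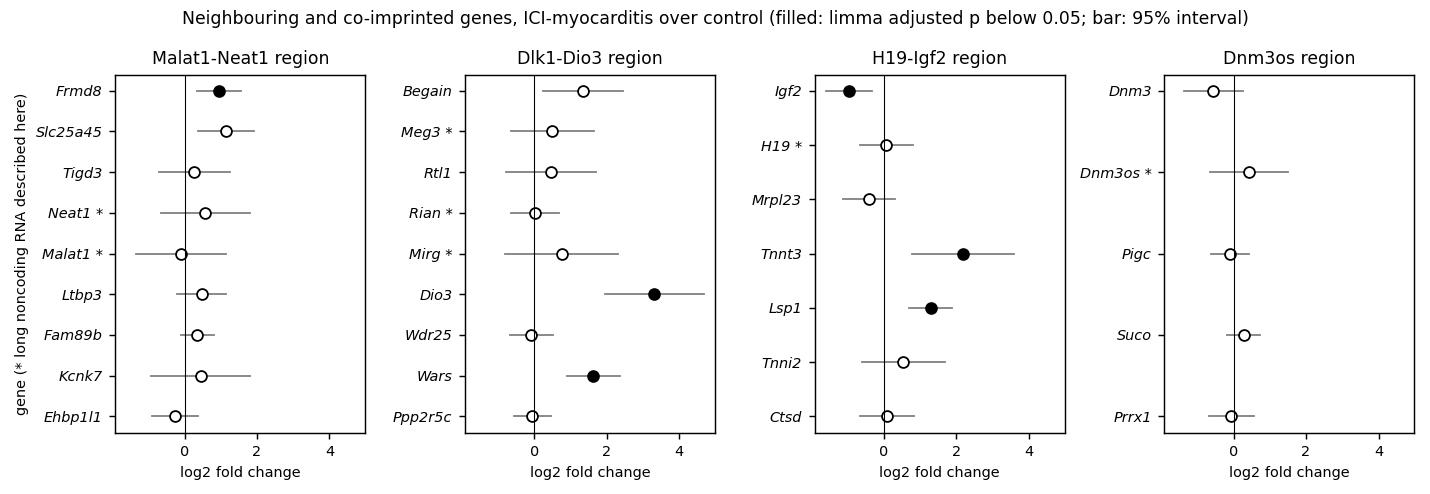
Log2 fold changes in ICI-myocarditis over control for the tested genes in the lists around each noncoding RNA (points, with 95% intervals; filled points had a limma adjusted p below 0.05). The 7 noncoding RNAs (asterisks) are open points, and the filled ones are Frmd8, Dio3, Wars, Igf2, Tnnt3 and Lsp1, of which Igf2 alone is below 0.

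Imprinted genes active in fetal growth, Igf2 among them, were read as a list that holds none of the 7 noncoding RNAs. Of its 20 tested genes 1 was higher (Dio3) and 3 were lower (Igf2, Cdkn1c and Zim1), and 15.7% of all genes tested were called. Dio3 passed the filter only through the ICI-myocarditis group, as given above. The median log2 fold change was -0.22, beside -0.02 for all genes. Cdkn1c, a maternally expressed inhibitor of cyclin-dependent kinases, had a control mean of 1382 ± 354 normalized counts (SD, n = 4) and an ICI-myocarditis mean of 371 ± 93.0 (SD, n = 3), a log2 fold change of -1.89 (limma adjusted p = 0.004). Zim1, an imprinted zinc finger gene next to Peg3, was at 65.0 ± 11.2 and 8.47 ± 5.93 (log2 fold change -2.96, limma adjusted p = 0.005). The 3 maternally expressed noncoding RNAs of chromosome 12 and H19 were not among the genes called.

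Protein partners of the nuclear RNAs were also not called. Over all genes tested, 15.7% were called and 30.1% had an unadjusted limma p below 0.05. Of 15 paraspeckle proteins, which assemble on Neat1, 0 were called by limma and 1 had an unadjusted p below 0.05. That was Hnrnph3 (log2 fold change -0.52, limma adjusted p = 0.134), followed by Taf15 (-0.31, limma adjusted p = 0.348). Of 18 nuclear speckle proteins, among which Malat1 resides, 0 were called by limma and 0 had an unadjusted p below 0.05. The lowest p values were those of Srsf2 (log2 fold change 0.26, limma adjusted p = 0.407) and Pnn (-0.26, limma adjusted p = 0.415), both splicing factors. The median log2 fold changes were -0.08 and -0.02, beside -0.02 for all genes.

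Among all 518 tested genes annotated as long noncoding, 31 were higher and 8 were lower, a share of 7.53% beside 15.7% of all genes tested. Their median log2 fold change was -0.0045, beside -0.024 for all genes. RefSeq lists 13 of them as protein coding, and without these 37 of 505 were called (7.33%). Named genes of the class that rose were Pvt1, a transcript next to Myc (log2 fold change 1.89, SE 0.424, limma adjusted p = 0.018, called in 14 of 17 alternatives), together with Ifi30 (3.10, limma adjusted p = 0.004, called in 17 of 17) and Trerf1 (1.58, limma adjusted p = 0.036, called in 10 of 17), both protein coding in RefSeq. Peg13, an imprinted noncoding RNA within Trappc9, fell (-0.74, SE 0.190, limma adjusted p = 0.029, called in 10 of 17 alternatives).

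Each of the 7 genes was last compared with the rest of the table by its pattern over the 7 libraries. Likeness was the root mean square difference of log2 levels, each centred on its own mean, over 11404 genes with a mean of at least 100 normalized counts. The closest genes to Malat1 were Slc26a1 (0.151) and Ncrna00085 (0.173). Those closest to Neat1 were Atg16l2 (0.196) and Meg3 (0.225), and those closest to Meg3 were Dclk2 (0.154) and Atg16l2 (0.176). Neat1 and Meg3, from different chromosomes, were thus the closest pair among the 7, whereas the difference between the neighbours Malat1 and Neat1 was 0.397. Rian lay closest to Eda2r (0.133) and Per3 (0.161), and H19 to Dmtf1 (0.120) and Cd2ap (0.127). Mirg lay closest to Mx2 (0.223) and Degs2 (0.224), and Dnm3os to Megf11 (0.177) and Mdm4 (0.180). The root mean square of a gene's own centred levels was 0.355 for Rian and 0.422 for H19, against 0.801 for Neat1 and 0.944 for Mirg. A smaller distance from a steadier gene thus does not by itself mean closer likeness. All points share the libraries and their size factors, so these values describe likeness only.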

How the data were processed

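Ventricular RNA of 4 control and 3 ICI-myocarditis mice was analysed, grouped by the sample titles. STAR 2.7.3 and the builds GRCm38 and mm10 are named in the submitters' processing notes; annotation and strand use are not given in the sources used here. The deposited values per library are a signal, namely gene counts that the authors divided by 1 size factor per library, as the values show. Per the file headers, the authors also deposited log2 fold changes, standard errors, test statistics (a score), p-values and adjusted p-values. Dividing by the step of each column gave whole numbers (tolerance 0.01) for 100% of values; for control 1 the step of 1.01 is a weaker sign. Of 23420 rows, 27 with names turned into dates were dropped (0.143% of reads). The table held 0 columns of other samples.

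Genes that reached 10 normalized counts in 3 or more libraries entered limma 3.58.1 (R 4.3.3; trend, robust) as log2(normalized count + 1), with Benjamini-Hochberg adjustment at 0.05 over all genes. edgeR 4.0.16 and DESeq2 1.42.0 on recovered reads (2126 and 3435 genes called) were alternatives, beside other pseudocounts, filters, scalings, a replicate block and left-out libraries. On simulated data with 14841 genes, limma recovered 46% of genes changed by a log2 of 1 and 99% of those changed by 2, with 3.33% wrong calls. The simulation gave every gene the same dispersion (spread between libraries) and no pattern shared by a library. These shares therefore do not hold for the 7 genes, whose log2 SD among controls had a median of 1.02. Partner ratios were tested by exact permutation. GENCODE M21 gave positions, types and exon lengths, matching 93.0% of the names kept, and RefSeq gave sequences. The genes and gene lists were chosen with earlier results of these data known. Named beside the 7 genes were the genes of the region lists, the called genes of the other lists or the 2 with the lowest p where none was called, the 5 named noncoding genes with the largest called change each way at a mean of at least 100, the 2 nearest patterns, and hosted small RNAs. A further gene, not in the lists used, is not reported here. Nothing says whether the samples of a group came from separate litters, and p-values measure the spread between these samples. Counting error adds to the spread between animals in low genes such as Mirg, Dio3 and Nespas. The labels name no molecular identifiers, and without them reads overstate the number of independent molecules.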

Additional observations from a re-analysis of the deposited data

How the results depend on the processing

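Of the 7 long noncoding RNAs, 0 were called in each of 17 alternatives, although 1 had an unadjusted p below 0.05 by limma without control 2. The number of genes called over the whole table ranged from 983 (without ICI-myocarditis 3) to 3333 (without control 2) when 1 library was left out, with 827 to 2248 higher and 156 to 1085 lower, against 2392, 1783 and 609. Genes called lower numbered 1279 by DESeq2, 311 after scaling by library size only and 399 with controls 2 and 4 both left out, the last an alternative chosen after the data were seen; the cause was not tested. Of the calls, 74.5% were higher as reported, 62.8% by DESeq2 and 84.3% after scaling by library size only, which moved the median log2 fold change of all genes from -0.02 to 0.14.

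Among the named genes, signs flipped for 3 of the 7 RNAs and for 7 neighbouring genes. Malat1 was 0.052 after scaling by library size only, and -0.56 to 0.26 with 1 library left out. Rian was -0.030 by edgeR and -0.011 by DESeq2, and -0.12 to 0.23 with 1 library left out. H19 was -0.13 without controls 2 and 4, and -0.20 to 0.21 with 1 library left out. Of the neighbouring genes, none of them called, scaling by library size only gave 0.078 for Wdr25, 0.10 for Ppp2r5c, 0.057 for Pigc and 0.099 for Prrx1. With 1 library left out Ppp2r5c ranged from -0.20 to 0.053, Pigc from -0.27 to 0.00997, Prrx1 from -0.30 to 0.084, Ctsd from -0.16 to 0.27, Tigd3 from -0.037 to 0.46 and Kcnk7 from -0.12 to 0.75.

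No sign was seen that the replicate numbers pair the samples. Same-numbered libraries had correlations of -0.27, -0.21 and -0.08 in their deviations from the group means. Differently numbered libraries ranged from -0.48 (control 4 and ICI-myocarditis 3) to 0.45 (control 4 and ICI-myocarditis 1). With so few libraries such values cannot exclude pairing. With the replicate number as a block 1777 genes were called, 1388 higher and 389 lower, and 0 of the 7. The cause of the change in the number called was not tested. Control 4 was the only library with its replicate number, so the block gave it no weight in the fold changes. The fold changes of the 7 genes thus equalled those without control 4 (-0.56 for Malat1 in both). Sign flips under the block repeat those without control 4 and are not separate evidence in the counts of alternatives. Under the block the sign flipped for Rian (-0.083), H19 (-0.20), Ppp2r5c (0.053), Tigd3 (-0.037), Kcnk7 (-0.12), Pigc (0.0049) and Prrx1 (0.084). Ratio differences kept their sign and stayed above an adjusted exact permutation p of 0.05 in each alternative run for the 3 ratios that did not overlap, and leaving out 1 library allowed no p below 0.0667.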

Other observations

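Noncoding hosts of snoRNAs, which are spliced transcripts whose introns yield the small RNAs, were read from the same limma fit. Of 11 tested hosts, 0 were called by limma and 2 had an unadjusted p below 0.05, beside 15.7% and 30.1% of all genes tested. Of the fold changes 10 of 11 were above 0, and the median log2 fold change was 0.46 beside -0.02 for all genes. Gas5 had a control mean of 790 ± 152 normalized counts (SD, n = 4) and an ICI-myocarditis mean of 1212 ± 141 (SD, n = 3), a log2 fold change of 0.63 (limma adjusted p = 0.068). Snhg5 was at 139 ± 42.9 and 234 ± 38.5 (log2 fold change 0.79, limma adjusted p = 0.109).

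Of 16 tested long noncoding RNAs from a list of other named genes, 2 were higher and 1 was lower. The share called was 18.8%, beside 15.7% of all genes tested. Beside Pvt1 and Peg13, already given, Nespas, the antisense transcript of the imprinted Gnas locus, was higher (log2 fold change 2.49, limma adjusted p = 0.041, called in 8 of 16 alternatives), from 3.90 ± 4.83 (SD, n = 4) to 20.1 ± 7.07 (SD, n = 3) normalized counts. It was at 1.01, 11.1, 2.23 and 1.25 in controls 1 to 4, so it passed the filter only through the ICI-myocarditis group and its fold change depends on the pseudocount. Without stated strand use its reads cannot be told apart from those of the overlapping Gnas transcripts.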
